A study of Homo sapiens with 9 samples.

Results

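Integrins are cell surface receptors made of 1 alpha and 1 beta subunit, each with a large extracellular part that binds matrix proteins or other cells and, in most subunits, a short tail that couples to the actin cytoskeleton. The pair decides the ligand: alpha4 joins beta1 or beta7 and binds VCAM-1, MAdCAM-1 and fibronectin, alpha5 joins beta1 and binds fibronectin, alphaV joins several beta subunits and binds matrix proteins with an RGD motif and latent TGF-beta, and alpha6 joins beta1 or beta4 and binds laminin. The 10 subunits described here were ITGA2, ITGA3, ITGA4, ITGA5, ITGA6, ITGAV, ITGB1, ITGB3, ITGB5 and ITGB8, out of 26 integrin subunit genes listed and 26862 genes tested. They were found on the array as all probes whose RefSeq accession maps to those genes, which gave 13 probes: 3 for ITGA4, 2 for ITGA6 and 1 for each of the other 8. All 13 probes passed the filter on dim probes, and 11 were well above background on all 9 arrays. The others, both of ITGA4, passed the filter only through the control group, where they were high. The list was picked from the array with results of these same group comparisons known, ITGA4 being among the largest decreases, so the members' differences are a description and carry no test.

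The samples were HEK293 cells, an established human line of embryonic kidney origin, in 3 groups of 3 one-color arrays each. KD3 cells carried SmcHD1 shRNA 3, KD4 cells SmcHD1 shRNA 4 and CTL cells the control shRNA NC5, all delivered by retrovirus in the pQCXIP-GFP vector, so every group had been infected, expressed GFP and been selected with puromycin. SmcHD1 is a chromosomal protein with a hinge domain like that of SMC proteins, best known for its part in X inactivation. The cells were pooled stable populations, and although the samples were biological triplicates it was not stated whether these came from separate infections, so p-values measure the spread between these samples only.

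The 3 hairpins are shown because they are the only designed difference between the groups. Capitals mark bases of the 5′ arm that pair with the 3′ arm in runs of at least 3, and the 9-base loop lies between the arms.
KD3: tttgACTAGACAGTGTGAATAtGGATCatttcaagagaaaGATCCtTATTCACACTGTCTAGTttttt
KD4: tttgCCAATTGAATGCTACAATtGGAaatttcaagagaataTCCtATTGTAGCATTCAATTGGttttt
CTL: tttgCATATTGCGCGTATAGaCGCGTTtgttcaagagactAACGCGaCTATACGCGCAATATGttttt
All 3 were 68 bases long, with 22 paired bases per arm in the KD3 and CTL hairpins and 21 in the KD4 hairpin.

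Signals are log2 values after quantile normalization, and a difference is a log2 signal in 1 group minus that in another. Calls needed both a fold of at least 1.8 and a limma p under 0.05 after Benjamini-Hochberg adjustment, and 1 called probe made its gene called. The lowest correlation between arrays of a group was r = 0.9946, between 76.8% and 81.0% of spots on an array were well above background, and no spot was saturated. The targeted gene, SMCHD1, was lower on all 3 of its probes: in KD3 by -0.97 to -1.03 (limma, adjusted p between 6.9e-05 and 0.0021) and in KD4 by -1.51 to -1.54 (limma, adjusted p between 7.4e-06 and 0.00019). The third probe was no longer called in KD3 without KD3 replicate 2 (-0.85). All 6 HEK293 markers (PAX2, KRT8, KRT18, VIM, NEFL and NEFM) were well above background on every array, with a summed signal of 136810 to 163222. VIM, at a mean of 16.89 in CTL, made up most of that sum, while NEFM was at 5.54. PAX2, on 1 of its 2 probes, and NEFM were called lower in both knock-downs, as given below. Levels of different probes are not comparable, so the order of such sums does not show which cells the culture held. Summed signals of markers of other cell types were lower. They were 623 to 759 for the 4 of 5 leukocyte markers with a probe. For 5 endothelial markers they were 161 to 214, and for 5 fibroblast markers 112 to 159. PECAM1 and THY1 failed the scanner's well-above-background flag (the background flag below) on all arrays. The flag was passed on all 9 by 4 leukocyte markers, CD14 and CD3E among them, 2 endothelial and 3 fibroblast markers. CD14 was at a mean of 7.64 in CTL. The flag thus marks signal above the array's local background and does not by itself show that a gene is used.

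ITGA4 was the only one of the 10 subunits called against CTL, in KD3 and in KD4, and its signal was lower in both. It encodes alpha4, known mainly from leukocytes and neural crest cells. Its brightest probe (probe 1) was at 7.84, 7.96 and 7.76 in CTL, at 5.86, 5.47 and 5.43 in KD3 and at 4.60, 4.89 and 4.78 in KD4. The 3 groups did not overlap, with CTL highest and KD4 lowest. The difference was -2.26 ± 0.13 (SE) in KD3 and -3.09 ± 0.13 in KD4, which left 20.8% of the CTL signal in KD3 and 11.7% in KD4. KD4 minus KD3 was -0.83, just short of 1.8-fold. By the methods' t-test after adjustment, ITGA4 was called in KD4 and no member was called in KD3. In bulk RNA, fewer cells with a transcript and less of it per cell cannot be told apart.

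The other probes of ITGA4 ran the same way at lower signal. Both passed the filter on dim probes only through CTL, where they were high, so they are no separate support for probe 1. Probe 2 was at 4.96, 5.47 and 5.35 in CTL, at 3.61, 4.22 and 3.90 in KD3 and at 3.50, 2.92 and 3.94 in KD4, and it was well above background on 3 CTL, 2 KD3 and 1 KD4 arrays. Its difference was -1.35 in KD3 and -1.81 in KD4, and KD3 and KD4 overlapped each other but not CTL. Probe 3 was at 5.82, 5.83 and 5.97 in CTL and failed the background flag on all 6 knock-down arrays. Each knock-down array was set at its own probe 3 signal or at the array's lowest signal well above background over all probes, whichever was higher. Probe 3 was then 8.53-fold lower in KD3 and 10.8-fold lower in KD4. These folds are not lower limits, since probe 2 failed the flag at up to 3.61. Both of the 2 slides held all groups. Of KD3, 1 slide held replicate 2 only, and of CTL and KD4 the other held replicate 1 only. Most within-slide differences thus rest on 1 array of a group. Within the slides, probe 1 differed by -2.39 and -2.19 in KD3 and by -3.02 and -3.23 in KD4. With the normexp background correction its difference was -1.41 in KD3 and -1.70 in KD4, and those of probes 2 and 3 fell below the fold threshold at -0.42 and -0.77 in KD3 and -0.49 and -0.78 in KD4.

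**Figure D1:**
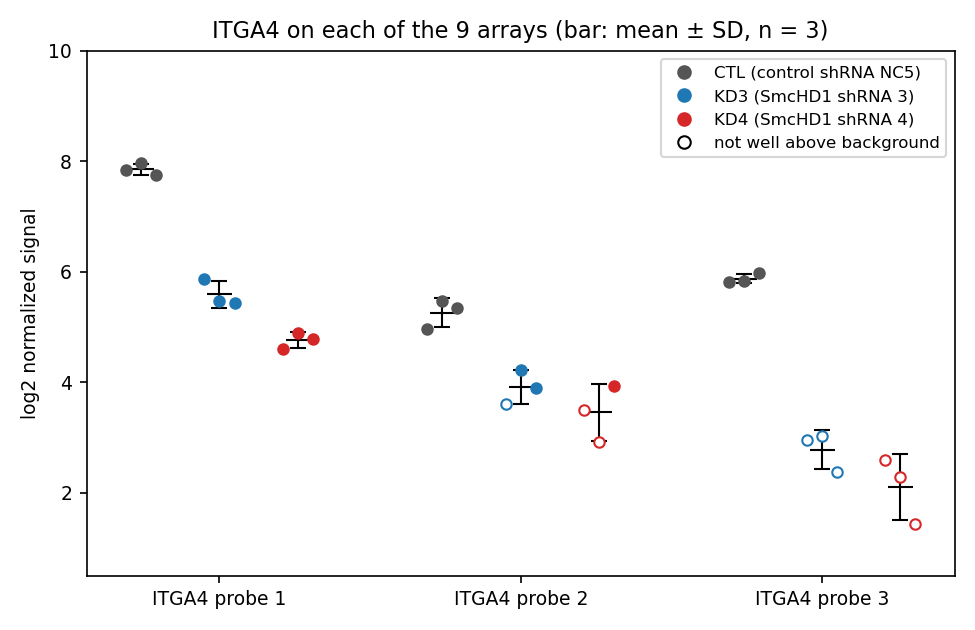
Log2 normalized signal of the 3 ITGA4 probes on each array, by group, with points for arrays, bars for mean ± SD (n = 3) and open points where the probe was not well above background. On probe 1 the 3 groups are separate, and on probe 3 all 6 knock-down arrays are open points.

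One of 10 members was called in KD3, where 3.67% of all tested genes were, and 1 of 10 in KD4, where 5.1% were. The comparison of KD4 with KD3 called 0.503% of genes and no member. By the brightest probe of each, the members had a median difference of -0.10 from CTL in KD3 and of -0.09 in KD4, while over all tested genes it was 0.01 and 0.04. Both knock-downs were set against the same 3 CTL arrays, so the values of KD3 and KD4 for a gene are not independent of each other. The KD3 and CTL arrays did not overlap for 3 of the 10 members (35.7% of all genes), and the KD4 and CTL arrays for 6 of 10 (44.6% of all genes). Outside ITGA4, the differences of the 10 remaining probes lay between -0.34 and 0.29 in KD3 and between -0.58 and 0.43 in KD4.

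Among the members, ITGA2 had the lowest difference in KD4 after ITGA4. It encodes the alpha2 chain of a collagen receptor. It was at 6.85, 6.85 and 6.73 in CTL, at 6.93, 6.24 and 6.64 in KD3 and at 6.44, 6.33 and 5.90 in KD4, where all 3 arrays lay below CTL. Its difference was -0.20 in KD3 and -0.58 in KD4. ITGA3, the alpha3 chain of a laminin receptor, was at 5.55, 5.51 and 5.52 in CTL and spread more widely in the knock-downs, from 4.94 to 5.53 in KD3 and from 5.18 to 5.62 in KD4. Its differences of -0.22 and -0.15 changed sign within 1 slide each (0.01 in KD3, 0.07 in KD4). Each of these slide values rested on 1 array of a group. ITGA5, the chain of the main fibronectin receptor, was between 7.48 and 7.66 in CTL, 7.29 and 7.75 in KD3 and 7.66 and 7.75 in KD4, so that both knock-downs overlapped CTL. ITGA6 was measured by a pair of probes, at 0.03 and 0.20 above CTL in KD3 and at -0.02 and 0.22 in KD4, and on probe 1 both knock-downs overlapped CTL. On probe 2 the CTL arrays ran from 9.03 to 9.28, the KD3 arrays from 9.24 to 9.45 and the KD4 arrays, all above CTL, from 9.31 to 9.45.

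ITGB1, the common partner of these alpha chains and of alpha4, overlapped CTL in both knock-downs. It was at 9.70, 9.66 and 9.52 in CTL, at 9.70, 9.76 and 9.56 in KD3 and at 9.63, 9.56 and 9.59 in KD4. Its difference was 0.05 ± 0.08 (SE) in KD3 and -0.03 ± 0.08 in KD4, so that both differences were smaller than their SE. The alpha4 signal was thus lower on the same arrays on which that of its beta1 partner was not separated from CTL.

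The alphaV group moved by less than 1.8-fold in both knock-downs. ITGAV was at 11.82, 11.91 and 11.86 in CTL, at 12.18, 12.06 and 12.09 in KD3 and at 11.99, 11.97 and 11.93 in KD4. Both knock-downs lay above CTL without overlap, with differences of 0.25 in KD3 and 0.10 in KD4. ITGB5, which forms the vitronectin receptor alphaVbeta5, was at 9.20, 9.08 and 9.06 in CTL, at 8.74, 8.83 and 8.77 in KD3 and at 8.79, 8.82 and 8.68 in KD4, with differences of -0.34 ± 0.07 (SE) and -0.35 ± 0.07. Every knock-down array was below every CTL array for ITGB5. ITGB8, whose pairing with alphaV binds latent TGF-beta, had similar differences of -0.31 ± 0.15 and -0.33 ± 0.15, but with CTL arrays from 6.48 to 6.90 and KD3 arrays from 6.13 to 6.58 it overlapped CTL in KD3. The KD4 arrays, at 6.17 to 6.44, lay below CTL. ITGB3 was higher, by 0.29 in KD3 and 0.43 in KD4, from 4.96, 5.06 and 5.33 in CTL to 5.67, 5.23 and 5.32 in KD3 and 5.35, 5.61 and 5.69 in KD4. In KD3 the ITGB3 difference was 0.03 within 1 slide and 0.54 within the other, each resting on 1 array of a group.

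**Figure D2:**
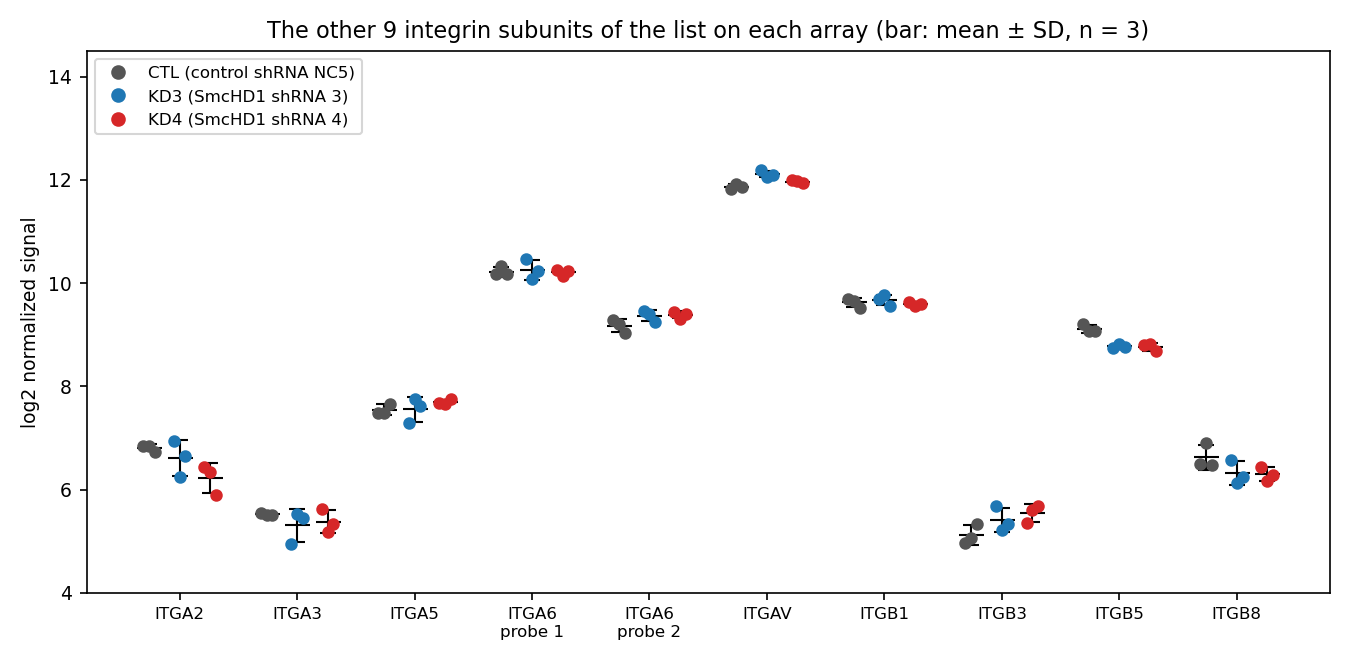
Log2 normalized signal of the 10 probes of the other 9 members on each array, by group, with bars for mean ± SD (n = 3). Within a probe the 3 groups lie close together, ITGB5 lying lower in both knock-downs and ITGAV higher. Levels of different probes are not comparable.

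Of the 16 other integrin subunits, 15 had a probe that passed the filter, the ITGB6 probe failing the background flag on all arrays. In this list ITGB4 was called lower in both knock-downs and ITGA1 in KD4, and none was called higher. Of all tested genes, 3.67% were called in KD3 and 5.1% in KD4. The median difference was 0.05 in KD3 and 0.02 in KD4. ITGB4 encodes beta4, which pairs only with alpha6 in the hemidesmosome. It was at 6.64, 6.66 and 6.81 in CTL, at 5.08, 5.14 and 5.34 in KD3 and at 5.79, 5.53 and 5.39 in KD4, with all knock-down arrays below CTL. The difference was -1.51 ± 0.12 (SE) in KD3 (limma, adjusted p = 9.1e-05) and -1.13 ± 0.12 in KD4 (limma, adjusted p = 0.00032). KD4 minus KD3 was 0.39 (limma, adjusted p = 0.13). With normexp the differences were -0.81 and -0.60, under the fold threshold.

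ITGA1, the alpha1 chain of a collagen receptor, was at 8.29, 8.51 and 8.45 in CTL, at 8.01, 7.84 and 7.94 in KD3 and at 7.65, 7.68 and 7.32 in KD4. Its difference of -0.49 in KD3 (limma, adjusted p = 0.016) was below the fold threshold, and that of -0.87 in KD4 (limma, adjusted p = 0.00087) just above it. KD4 minus KD3 was -0.38 (limma, adjusted p = 0.12), so the call in KD4 alone did not come with a difference between the knock-downs that passed the test. The call was lost without KD4 replicate 3 (-0.75), and also without CTL replicate 2 (-0.82) or without CTL replicate 3 (-0.85).

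By the adjusted p alone, with no fold threshold, ITGA7 fell by 0.62 in KD3 and by 0.36 in KD4, ITGAE rose by 0.46 and 0.49, and ITGB7 rose by 0.36 in KD3. ITGA7 encodes a laminin receptor chain best known from muscle. ITGAE and ITGB7 encode the subunits of alphaEbeta7, and beta7 is also the second partner of alpha4. ITGB7 was at 0.27 in KD4 (limma, adjusted p = 0.057). The counts by this rule were 2 higher and 3 lower of 15 in KD3, and 1 higher and 3 lower in KD4. Over all genes, 10.4% were higher and 11.3% lower in KD3, and 14.8% higher and 16% lower in KD4. The remaining subunits, ITGA2B, ITGA8, ITGA9, ITGA10, ITGA11, ITGAD, ITGAL, ITGAM, ITGAX and ITGB2, differed from CTL by between -0.17 and 0.39, and none passed the test.

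**Figure D3:**
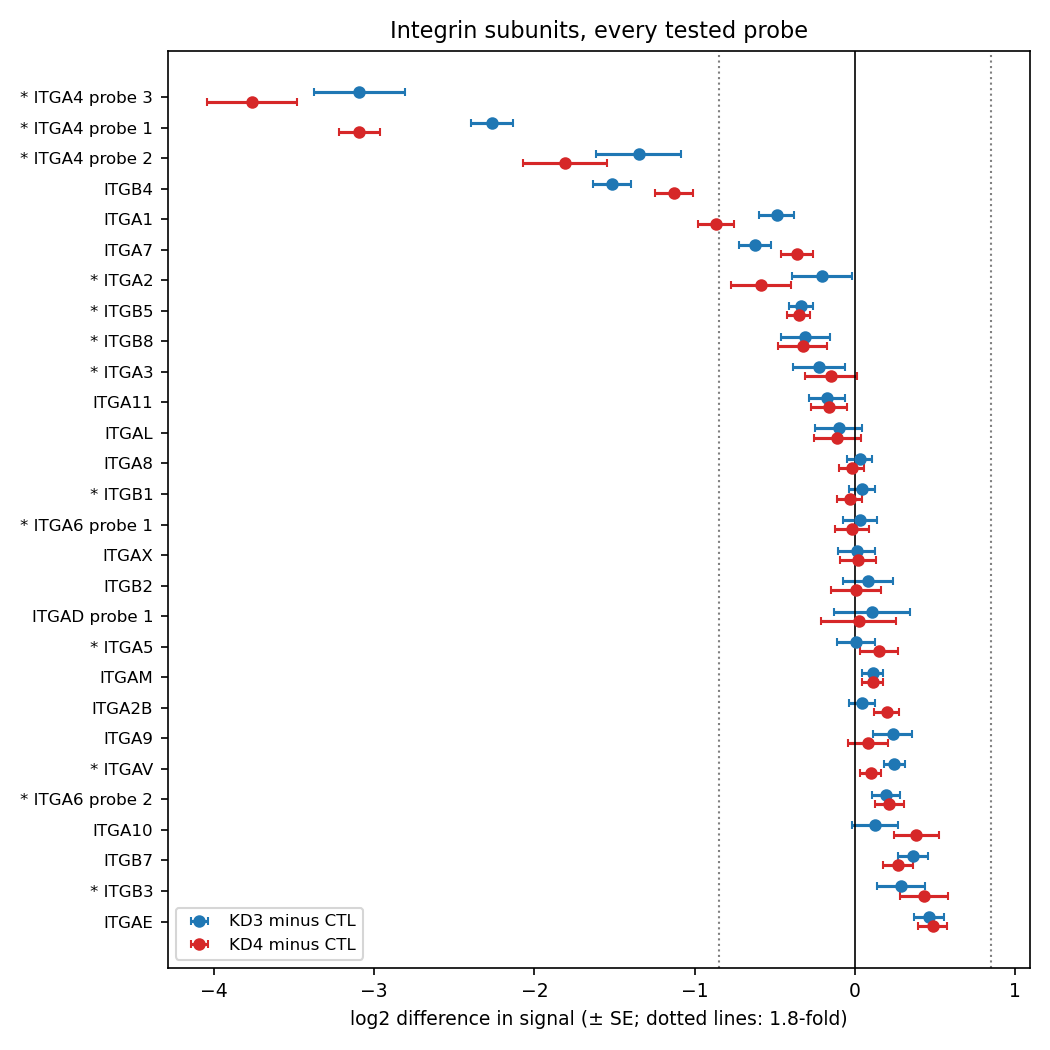
Log2 difference from CTL of every tested integrin probe in KD3 and KD4, with the SE of the fit, and dotted lines at 1.8-fold. Asterisks mark the 10 members. The 3 ITGA4 probes and ITGB4 lie to the left of the dotted line in both knock-downs.

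The sequence just upstream of ITGA4 and of its beta partners is shown because SmcHD1 was studied here as a protein recruited to methylated CpG sites. These arrays hold no methylation measurement. The runs come from the RefSeq promoter table (GRCh38.p14), cut to the bases before each gene's outermost annotated start, with CG dinucleotides in capitals.
ITGA4, chr2:181457136-181457204, plus strand: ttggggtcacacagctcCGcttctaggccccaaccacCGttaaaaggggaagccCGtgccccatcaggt
ITGB1, chr10:32958231-32958480, minus strand: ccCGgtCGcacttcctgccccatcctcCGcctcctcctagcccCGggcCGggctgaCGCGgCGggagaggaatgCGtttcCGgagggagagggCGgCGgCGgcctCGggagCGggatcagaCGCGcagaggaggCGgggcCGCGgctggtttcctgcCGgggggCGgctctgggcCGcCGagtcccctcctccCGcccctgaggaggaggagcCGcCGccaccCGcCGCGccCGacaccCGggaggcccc
ITGB7, chr12:53207252-53207501, minus strand: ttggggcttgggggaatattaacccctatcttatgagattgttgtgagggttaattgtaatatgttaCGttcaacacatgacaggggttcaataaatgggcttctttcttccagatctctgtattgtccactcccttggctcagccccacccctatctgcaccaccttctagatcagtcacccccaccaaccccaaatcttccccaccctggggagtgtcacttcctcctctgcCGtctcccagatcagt
The whole 300-base window of the table runs from 250 bases before to 50 after the table's own start. In it ITGA4 held 31 CG dinucleotides, ITGB1 held 39 and ITGB7 held 4. For ITGA4 that start lies inside the gene as annotated. Only the 69 bases shown, holding 3 of the 31, come before the gene. The 8 members with a window held between 11 and 39, against a median of 13 over 27305 genes, of which 95.9% held at least 1. For ITGA4, 20.2% of genes held as many or more, and for ITGB1 8.49% did, and both lay above the median. CG reads the same on both strands, and the count is a description of the sequence only.

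The protein-coding genes next to ITGA4 on chromosome 2 were looked up after its values had been seen. On the side before it, UBE2E3 had differences of -0.12 and -0.04 on its 2 probes in KD3 (limma, adjusted p of 0.34 and 0.71) and fell by 0.33 and 0.23 in KD4 (limma, adjusted p of 0.013 and 0.036). CWC22, beyond it, had differences of 0.19 in KD3 and 0.20 in KD4 (limma, adjusted p of 0.13 and 0.089). On the other side, CERKL failed the background flag on all arrays, and NEUROD1 passed it on 1 CTL array and no other. ITGA6 and ITGAV lie on the same chromosome. The genes whose brightest probe followed ITGA4 probe 1 most closely over the 9 arrays were ACP3 (Pearson r = 0.995), MGARP (r = 0.995) and KLHL14 (r = 0.994). Each was highest in CTL, lower in KD3 and lowest in KD4, with group means of 7.43, 6.27 and 5.76 for ACP3. The 9 points share the 3 groups, so the likeness is mainly one of group means.

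Integrins act through adaptors that bind the beta tail, of which talin and kindlin switch the receptor on and vinculin, paxillin, ILK and FAK link it to actin and signaling. Of 31 tested genes of this list, RAP1B was called higher in both knock-downs, TNS2 and APBB1IP were called lower in KD4, and no other gene was called. The share called over all tested genes was 3.67% in KD3 and 5.1% in KD4. The median difference was -0.16 in KD3 and -0.08 in KD4. RAP1B, a small GTPase that recruits talin to integrins, rose on both of its probes, by 1.47 ± 0.08 (SE) and 1.51 ± 0.08 in KD3 (limma, adjusted p of 1.4e-05 and 1.2e-05) and by 1.40 ± 0.08 and 1.46 ± 0.08 in KD4 (limma, adjusted p of 1.5e-05 and 1.1e-05). Its close relative RAP1A had differences of -0.04 and -0.01. APBB1IP encodes RIAM, which bridges Rap1 and talin. Its brighter probe differed by -0.64 in KD3 (limma, adjusted p = 0.018) and by -1.54 in KD4 (limma, adjusted p = 0.00021). Its dim probe was well above background on 3 CTL, 2 KD3 and 1 KD4 arrays, so it was tested only through CTL. The dim probe was at -0.24 and -0.36 without passing the test. With normexp the brighter probe was at -0.68 in KD4, and TNS2 at -0.52, under the fold threshold.

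TNS2, a tensin that links the beta tail to actin, differed by -0.80 in KD3 (limma, adjusted p = 0.00055) and by -0.85 in KD4 (limma, adjusted p = 0.00032), on either side of the fold threshold. With 75th percentile scaling it was called in KD3 (-0.86) and not in KD4 (-0.78), and without KD4 replicate 3 or CTL replicate 3 it was not called in KD4 (-0.77 and -0.80). By the adjusted p alone, 2 adaptors were higher and 9 lower in KD3, and 4 higher and 9 lower in KD4. Over all genes, 10.4% were higher and 11.3% lower in KD3, and 14.8% higher and 16% lower in KD4. VCL fell by 0.37 in KD3 and by 0.56 in KD4, and PTK2, which encodes FAK, by 0.25 and 0.37. TLN2 fell by 0.31 and 0.37, whereas TLN1 had differences of -0.06 and 0.27 that did not pass the test. ILK rose by 0.40 in KD4.

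Of the integrin ligands, 26 of 28 were tested, and more of them were lower than higher. LAMA1 and FBLN5 were called lower in both knock-downs, FBN1, MADCAM1 and NPNT in KD4, and none higher. FBN1 entered the test only through CTL, where it was high, so its place in the KD4 counts is a description only. Among all tested genes, 3.67% were called in KD3 and 5.1% in KD4. The median difference was -0.37 in KD3 and -0.31 in KD4. By the adjusted p alone, 12 were lower and 1 higher in KD3, and 13 lower and 1 higher in KD4. Over all genes, 11.3% were lower and 10.4% higher in KD3, and 16% lower and 14.8% higher in KD4. LAMA1, the laminin alpha1 chain of basement membranes, differed on its 2 probes by -1.02 ± 0.09 (SE) and -0.90 ± 0.10 in KD3 and by -1.16 ± 0.09 and -1.22 ± 0.10 in KD4 (limma, adjusted p between 5.2e-05 and 0.00050). The dimmer LAMA1 probe was not called in KD3 without KD3 replicate 3 (-0.83). FBLN5, which encodes the elastic fiber protein fibulin-5, differed by -1.03 in KD3 (limma, adjusted p = 0.0014) and by -1.15 in KD4 (limma, adjusted p = 0.00060). With normexp the FBLN5 differences were -0.46 and -0.50, and those of NPNT, MADCAM1 and FBN1 in KD4 were -0.83, -0.56 and -0.21, all under the fold threshold.

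The ligands of alpha4 itself were measured in part. VCAM1 failed the background flag on all arrays. MADCAM1, the ligand of alpha4beta7, fell by 0.48 in KD3 (limma, adjusted p = 0.043) and by 0.91 in KD4 (limma, adjusted p = 0.0020). The MADCAM1 difference in KD4 was below the fold threshold without CTL replicate 3 (-0.74) and with 75th percentile scaling (-0.82). FN1, which encodes fibronectin, fell by 0.67 and 0.58, and SPP1, which encodes osteopontin, by 0.64 and 0.57, all past the adjusted p and none past 1.8-fold. NPNT, the ligand of alpha8beta1, fell by 0.73 in KD3 (limma, adjusted p = 0.00043) and by 0.93 in KD4 (limma, adjusted p = 0.00010), while ITGA8 itself had differences of 0.03 and -0.02. FBN1 was well above background on 3 CTL, 2 KD3 and 1 KD4 arrays. It thus entered the test only through CTL, where it was high. It differed by -0.47 in KD3 and by -1.70 in KD4, and KD4 minus KD3 was -1.24. The KD3 difference and KD4 minus KD3 did not pass the test, and for the KD4 difference no p is given.

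**Figure D4:**
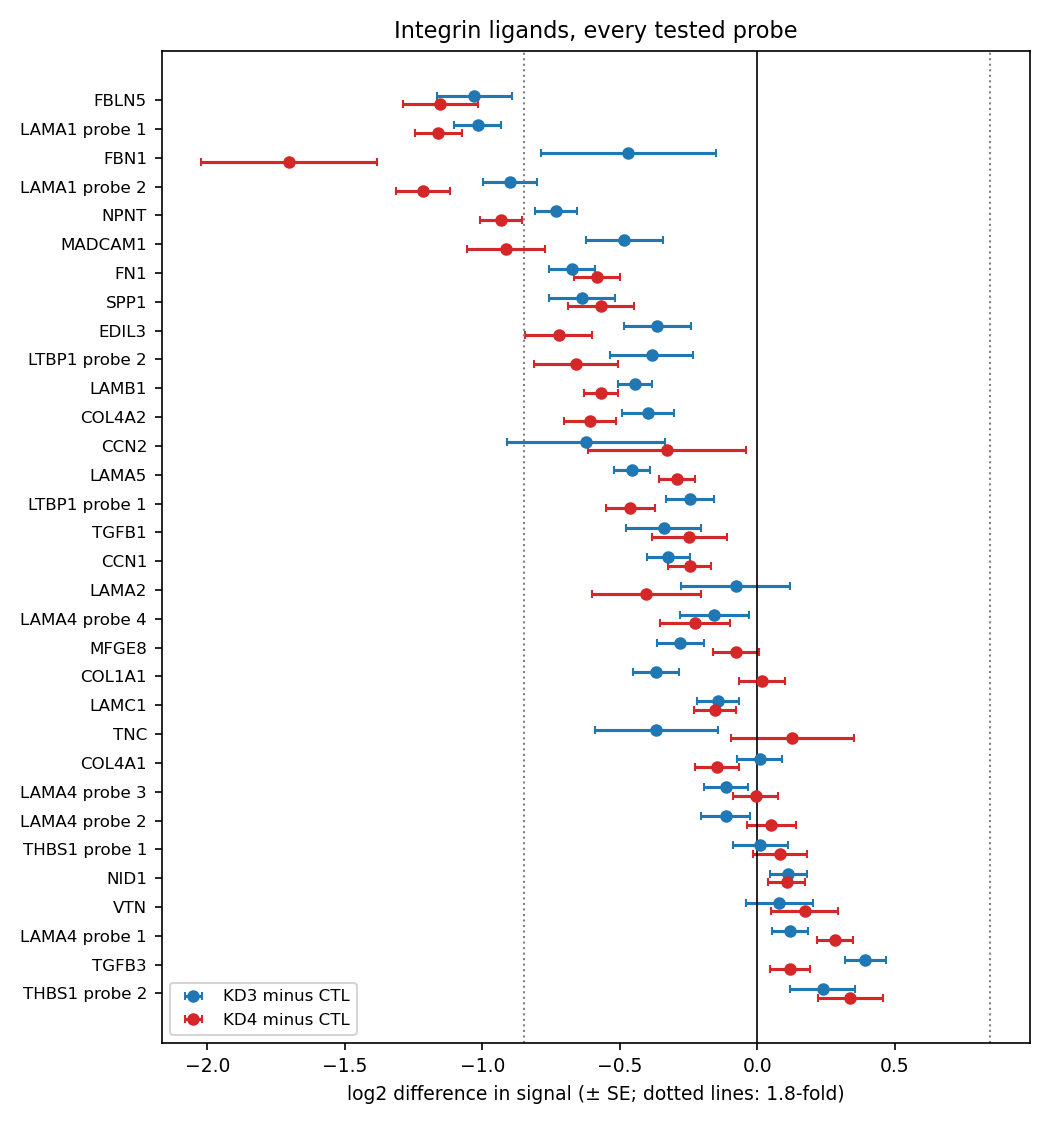
Log2 difference from CTL of every tested probe of the integrin ligands in KD3 and KD4, with the SE of the fit, and dotted lines at 1.8-fold. LAMA1 and FBLN5 lie beyond the left line in both knock-downs, and no probe lies beyond the right one.

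None of the 8 tested membrane partners was called by limma in KD3 or KD4, nor by the methods' t-test. At an unadjusted p under 0.05, 7 of them differed in KD3 and 5 in KD4, where 35.2% and 43% of all genes did. By the adjusted p alone, CAV1, which encodes caveolin-1, fell on both probes, by 0.48 and 0.38 in KD3 and by 0.71 and 0.74 in KD4. CD151, a tetraspanin bound to laminin-binding integrins, fell by 0.33 and 0.30, and SLC3A2, the CD98 heavy chain that binds beta1 tails, by 0.51 and 0.39. In all, 4 were lower and none higher in KD3, and 3 were lower and 2 higher in KD4. Over all genes, 11.3% were lower and 10.4% higher in KD3, and 16% lower and 14.8% higher in KD4. The median difference of the list was -0.24 in KD3 and -0.06 in KD4.

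Some markers moved with these genes. Of the HEK293 markers, PAX2 fell on 1 of its 2 probes by 2.41 in KD3 and by 2.65 in KD4, the other probe being at -0.01 and 0.06, and NEFM fell by 1.21 and 1.24 (limma, adjusted p between 5.6e-07 and 0.0030). By the adjusted p alone, NEFL fell by 0.33 and 0.41, and KRT18 rose in KD4 by 0.34 and 0.35 on its 2 probes. VIM, at -0.08 and 0.08, and KRT8, at -0.17 and 0.21 on its brighter probe, did not pass the test. PDGFRB, of the fibroblast list, was well above background on the 3 CTL arrays only, so it entered the test through the group where it was high. With its knock-down arrays set as for ITGA4 probe 3, it was 1.99-fold lower in KD3 and 2.54-fold lower in KD4. Those folds rest on signals that failed the background flag, so no p is given. PDGFRA of the same list fell by 0.49 in KD4, VWF of the endothelial list by 0.82 and 0.69, and CD68 of the leukocyte list rose by 0.39 in KD3, by the adjusted p alone. The part of such shifts in the ITGA4, ITGB4 and ligand differences was not tested.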

How the data were processed

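HEK293 cells carrying SmcHD1 shRNA 3, SmcHD1 shRNA 4 or control shRNA NC5 were profiled on 9 one-color Agilent SurePrint G3 arrays, 3 per group, as the labels assign them. Per the methods and the file headers, the authors extracted spot intensity with Agilent Feature Extraction 10.10. The deposited scanner files hold the background-subtracted processed intensity and quality flags, and the authors' deposited value table holds log2 values normalized in GeneSpring, used only as an alternative. They differed from the values computed here by a median of -0.07.

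Here the processed intensity, without control and outlier spots, was put on the log2 scale and quantile normalized, reading the methods' "quintile" as that. The normalized values were then averaged over the spots of a probe. A probe was tested if, in 1 or more groups, it passed the well-above-background flag on all 3 arrays (32276 of 42405 probes). The files hold no gene names: 25422 probes were named through their accession in the RefSeq table (GRCh38.p14), and the others were counted by accession. limma 3.58.1 in R 4.3.3 fitted all 9 arrays with 3 groups and no covariate. Tested on simulated data for KD3 and KD4 against CTL over 32276 probes, it recovered 188 of 200 changed probes in both. Where a probe failed that flag on all arrays of a group, its level there is uncertain. The fold then given sets each such array no lower than its lowest signal well above background over all probes, and is not a strict limit. Number of arrays limits the precision.

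The members, the gene lists and the tests were chosen with earlier results of these data known. Named are all members and other integrin subunits, SMCHD1, adaptor, ligand and partner genes called the same way in both knock-downs or between them, and the 3 genes most like a called member. The others named were chosen after their values were seen. One gene of the marker lists was left out of them and is not reported here. Alternatives were 75th percentile scaling, normexp background correction (offset 50), the authors' values, other filters, the methods' t-test, pairs of groups alone, a replicate block, a slide block, no fold threshold, the brightest probe only, and leaving out each array.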

Additional observations from a re-analysis of the deposited data

Results flagged for a closer look

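Genes outside the 10 members (APBB1IP, FLNA, CD82, CAV1 and CD68), and the targeted gene, were singled out because their effects in KD3 and KD4 differed by a direct limma test of KD4 against KD3. APBB1IP was lower in KD4 by -0.90 ± 0.15 (SE) on its brighter probe (limma, adjusted p = 0.021). All 3 KD4 arrays lay below all KD3 arrays, and APBB1IP was the only one past 1.8-fold. Its dim probe was at -0.12 without passing the test. FLNA, which encodes filamin A, was higher in KD4 than in KD3 by 0.71 ± 0.10 (limma, adjusted p = 0.012), with -0.51 in KD3 and 0.19 in KD4 against CTL, on its brighter probe only. CD82, a tetraspanin, was higher in KD4 by 0.44 ± 0.07 (limma, adjusted p = 0.019). CAV1 was lower in KD4 on its dimmer probe by -0.36 ± 0.06 (limma, adjusted p = 0.024). Its brighter probe, at -0.23, did not pass (limma, adjusted p = 0.26). CD68, of the leukocyte markers, was lower in KD4 by -0.39 ± 0.07 (limma, adjusted p = 0.024). SMCHD1 was lower in KD4 than in KD3 by -0.56 ± 0.09 on probe 1 (limma, adjusted p = 0.019). On probe 2 it was lower by -0.51 ± 0.08 (limma, adjusted p = 0.014). Probe 3, at -0.54, did not pass (limma, adjusted p = 0.090). The 10 members are left out here because they were picked with this comparison known, and ITGA4 probe 1 was at -0.83 between KD4 and KD3. Groups of 3 arrays are too small to single out an outlying array.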

How the results depend on the processing

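ITGA4 stayed lower than CTL under every alternative run: probe 1 ranged from -2.40 to -1.41 in KD3 and from -3.23 to -1.70 in KD4. Of 696 alternative values of the members' differences, 38 changed sign, none of them of ITGA4 and all of differences of at most 0.22. The count of members called was 0 in KD3 by the methods' t-test after adjustment, and with no fold threshold it was 3 in KD3, 3 in KD4 and 1 for KD4 against KD3. The last, with no member called otherwise, ranged from 0 to 1 on leaving out an array, being 1 (ITGA4) without KD3 replicate 3 or KD4 replicate 2. Of the other subunits, normexp called 0 in KD3 and 0 in KD4, the adjusted t-test 0 in KD4, no fold threshold 5 and 4, and leaving out an array 1 to 2 in KD4. Of the adaptors, 75th percentile scaling called 2 in KD3, normexp 1 in KD4, and no fold threshold 11 and 13. Of the ligands, normexp called 1 in KD3 and 1 in KD4, the adjusted t-test 0 and 2, and no fold threshold 13 and 14. Of the partners, no fold threshold called 4 and 5. SMCHD1 in KD3 was not called on probe 2 by the adjusted t-test (-1.03), nor on probe 3 by that test (-0.97) or with normexp (-0.76), and probe 3 ranged from -1.10 to -0.85 on leaving out an array. Normexp adds an offset, which shrinks differences of dim probes by construction. The cause of the other changes was not tested. Same-numbered arrays of different groups correlated at -0.08 to 0.14 in their deviations from group means, and differently numbered ones at -0.14 to 0.14. No strong shared deviation of same-numbered arrays was thus seen, which cannot exclude that the numbers pair the samples. With the replicate block, 1 member (ITGA4) was called in KD3 and 1 in KD4, and SMCHD1 probe 1 was at -0.97 and -1.53. The replicate block and the slide block changed no count given here.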
